A study of Astyanax mexicanus with 6 samples.

Results

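In the liver of the Mexican tetra, Astyanax mexicanus, 110 of the 27420 genes in the count table were lower in both cave populations than in the river population by similar amounts. The members were chosen by their reads in all 6 libraries, as CPM (a gene's reads scaled to a common library size) after TMM scaling, which takes the bulk of genes as unchanged. A member had at least 2 CPM in the lower of the 2 Surface libraries, and that value was at least 3 times the highest of the 4 cave values. Its Pachon and Tinaja means, each with 0.5 CPM added, also differed by less than 2-fold. The difference from Surface and the likeness of the caves are therefore what the choice asked for. Their values, and the test outcomes given beside them, are a description and no support for either.

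Liver RNA was sequenced from 3 populations with 2 libraries each. Surface is the eyed river form, and Pachon and Tinaja are cave populations named after their caves. RNA was purified on columns from liver tissue, and strand-specific libraries were made from polyA RNA, per the labels' protocols. No treatment, time, age, sex or feeding state is given in the sources used here. Nor is it stated if 2 libraries of one population are 2 fish, pools or one sample, and p-values measure only the spread between them, which may be technical. The table names its genes by Ensembl identifiers only, and 0 of them could be paired with a gene symbol in the reference table. The liver label could not be checked against marker genes, and no role, pathway or cell type is given for a member. Members are named below by their rank in mean Surface CPM, from 1 to 110, and 2 of them also by identifier. CPM is not divided by gene length, so the ranking orders genes by reads and not by transcript number.

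The vertebrate liver makes most plasma proteins and bile, stores sugar and fat, and breaks down foreign compounds, mainly in hepatocytes. Cave tetras descend from river fish, live in darkness with scarce food, and are known for reduced eyes and pigment, large fat stores and resistance to starvation. A transcript that is low in livers of separate caves is of interest in this system because those populations live apart. Both caves are compared here with the same 2 Surface libraries. A level lowered in the caves and one raised in Surface cannot be told apart.

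Library totals ran from 22168622 to 29521610 counts, and TMM factors from 0.822 in Surface 1 to 1.33 in Pachon 2. No pair of libraries was a duplicate: the chi-square between their counts per degree of freedom was at least 167. It was 171 between the Pachon libraries and 224 between the Tinaja libraries. Between a Pachon and a Tinaja library it ran from 173 (Pachon 1 and Tinaja 1) to 850 (Pachon 2 and Tinaja 2). Genes with too few reads were left out of the fit, and 15282 were tested, all 110 members among them.

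**Figure D1:**
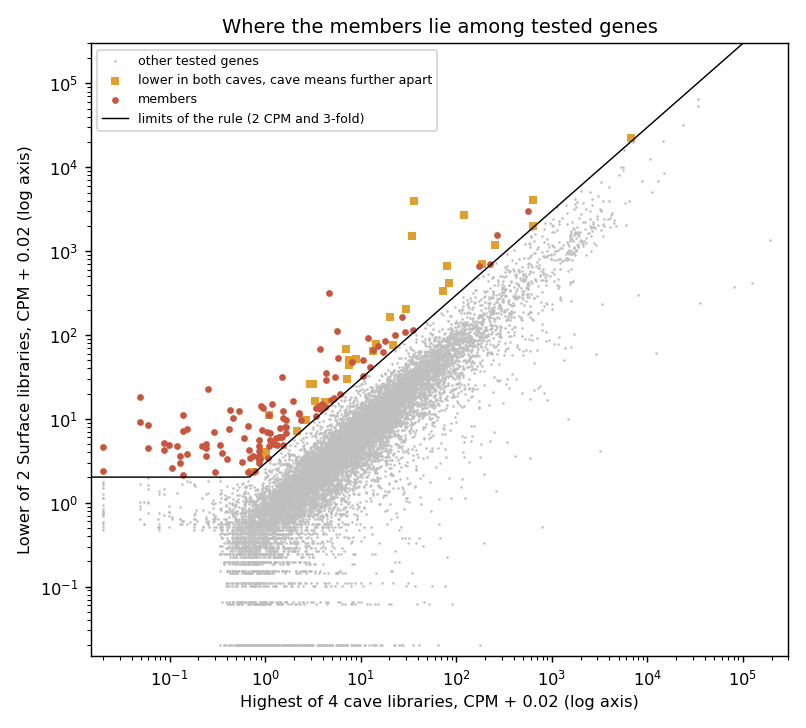
Each point is a tested gene, with the highest of its 4 cave libraries across and the lower of its 2 Surface libraries up, both as CPM plus 0.02 on log axes. The black line marks the limits of 2 CPM and 3-fold, the 110 members are red circles, and the 31 genes past both limits whose cave means lay further apart are orange squares.

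From the rule's floor of 2 CPM upwards, members were found at low, middle and high read levels. Mean Surface CPM ran from 2.12 to 3773 with a median of 10.8, while the median member had 0.771 CPM in Pachon and 0.776 in Tinaja. Members made up 52 of 5288 genes with a Surface mean from 2 to 10 CPM (0.983%), 47 of 4339 from 10 to 100 CPM (1.08%), 9 of 689 from 100 to 1000 CPM (1.31%) and 2 of 213 at 1000 CPM or more (0.939%). About 1 gene in 100 was a member at each of these levels. In bulk liver RNA, fewer cells of a type and less RNA per cell cannot be told apart for any of these genes. Whether cave and Surface reads matched the Ensembl genes equally well was not tested, so few cave reads need not mean little RNA.

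The lower Surface library exceeded the highest cave library by a median of 5.99-fold. This ratio was from 3 to 4 in 24 members, from 4 to 8 in 39, from 8 to 16 in 14 and from 16 to 64 in 23. In the other 10 members it was at least 64 or had no cave read to divide by. Large ratios were not limited to genes with many reads, since the median Surface mean was 15.9 CPM in the group from 3 to 4 and 9.28 CPM in the group of 64 and over.

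Fitted log2 fold changes from edgeR had a median of -3.61 in Pachon against Surface, with a middle range of -5.67 to -2.73, and a median SE of 0.42. In Tinaja the median was -3.77, the middle range -5.64 to -2.79 and the median SE 0.44. Over all 15282 tested genes the medians were 0.00 in Pachon and -0.01 in Tinaja. Both comparisons share the Surface libraries. By edgeR's quasi-likelihood test 107 members were called lower in Pachon, where 8.06% of all tested genes were, and 107 in Tinaja, where 7.77% were. For the mean of both caves 109 were called, against 9.46% of all tested genes. The rule used these contrasts, so nothing is read from the counts.

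As a share of all reads the members took 0.745% and 1.05% for Surface, 0.155% and 0.187% for Pachon, and 0.136% and 0.0978% for Tinaja (replicates 1 and 2). The Wilson 95% intervals of these shares reached at most 0.00401 percentage points to either side and cover counting error only. The population means were 0.895% ± 0.212, 0.171% ± 0.0226 and 0.117% ± 0.0268 (SD, n = 2). Reads were concentrated in few members: the first 10 held 82.8% of the members' summed mean Surface CPM. Member 1 alone gave 36.2% ± 4.55 of the members' reads for Surface, 37.5% ± 3.99 for Pachon and 39.3% ± 4.35 for Tinaja (SD, n = 2), so its part differed by less than the spread between libraries.

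**Figure D2:**
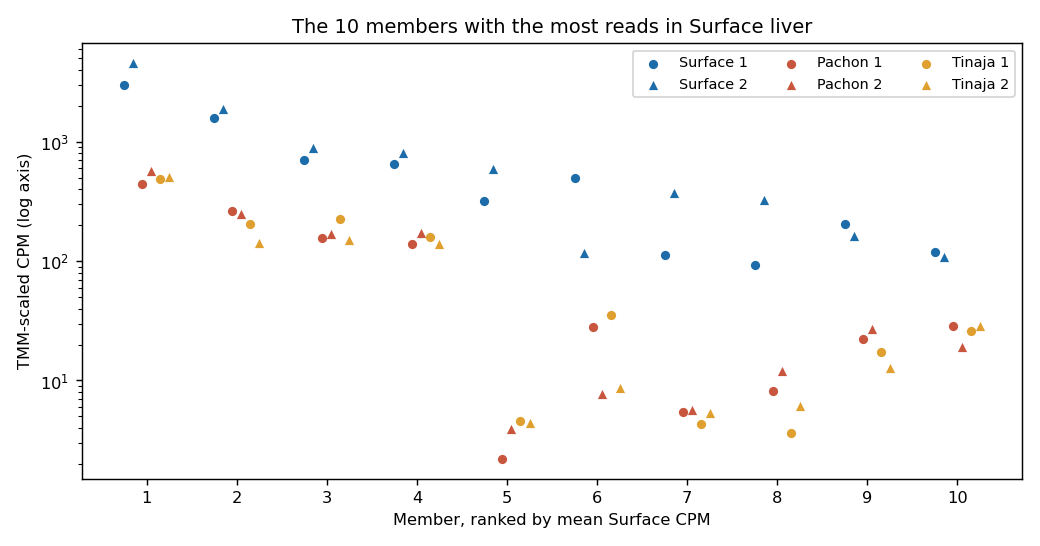
CPM on a log axis for the 10 members with the highest mean Surface CPM, with circles for replicate 1 and triangles for replicate 2 of each population. Members 1 to 4 stay above 100 CPM in every cave library, while members 5, 7 and 8 fall to 12 CPM or less.

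Member 1, ENSAMXG00000008504, was read at 2992 and 4554 CPM in the Surface libraries, at 445 and 564 for Pachon and at 485 and 503 for Tinaja (replicates 1 and 2, here and below). All 4 cave libraries lay close together, far below both Surface libraries. Its log2 fold change was -2.90 ± 0.36 in Pachon and -2.93 ± 0.36 in Tinaja (SE). The pooled reads of Surface were 7.44 times those of the caves per scaled library size.

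Member 2 gave 1578 and 1885 CPM in the Surface libraries, against 264 and 247 for Pachon and 205 and 141 for Tinaja. Pachon lay above Tinaja in both libraries, by 0.56 ± 0.31 on the log2 scale (SE), which did not pass the test (edgeR adjusted p = 0.279). Member 3 was read at 707 and 889 CPM in Surface livers, at 156 and 169 for Pachon, and at 224 and 150 for Tinaja, where the cave ranges overlapped. Member 4 gave 656 and 802 CPM in the Surface libraries, against 140 and 172 for Pachon and 160 and 139 for Tinaja. Like members 1 to 3, member 4 kept over 100 CPM in each cave library. The log2 fold changes of members 2, 3 and 4 were -2.76, -2.30 and -2.23 in Pachon and -3.32, -2.09 and -2.28 in Tinaja, with SE from 0.29 to 0.34.

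Member 5 stood apart from these. Surface livers gave 316 and 594 CPM, against 2.21 and 3.90 for Pachon and 4.603 and 4.38 for Tinaja. Every cave library was below 5 CPM, and the pooled ratio of Surface to cave reads was 122, with an exact 95% counting interval of 111 to 135. Among members with at least 10 CPM in both Surface libraries this was the fourth largest ratio. The log2 fold change was -7.21 ± 0.50 in Pachon and -6.66 ± 0.49 in Tinaja (SE).

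Members 7 and 8 were also deep in the caves, but their Surface libraries differed. Member 7 was read at 113 and 374 CPM in Surface livers, at 5.41 and 5.69 for Pachon, and at 4.29 and 5.36 for Tinaja. Member 8 gave 92.1 and 322 CPM in the Surface libraries, against 8.22 and 11.99 for Pachon and 3.61 and 6.07 for Tinaja. In both, Surface 2 was over 3 times Surface 1, and the cave libraries were far more alike. Member 8 was the one closest to the limit on the cave means, with a ratio of 1.99 after the added 0.5 CPM and both Pachon libraries above both Tinaja libraries.

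Members 9 and 10 fell less far. Member 9 was read at 204 and 163 CPM in Surface livers, at 22.1 and 27.1 for Pachon, and at 17.3 and 12.8 for Tinaja. Member 10 gave 119 and 108 CPM in the Surface libraries, against 28.5 and 19.0 for Pachon and 25.99 and 28.7 for Tinaja. Their log2 fold changes were -2.90 ± 0.27 and -2.26 ± 0.25 in Pachon, and -3.60 ± 0.28 and -2.06 ± 0.25 in Tinaja (SE).

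**Figure D3:**
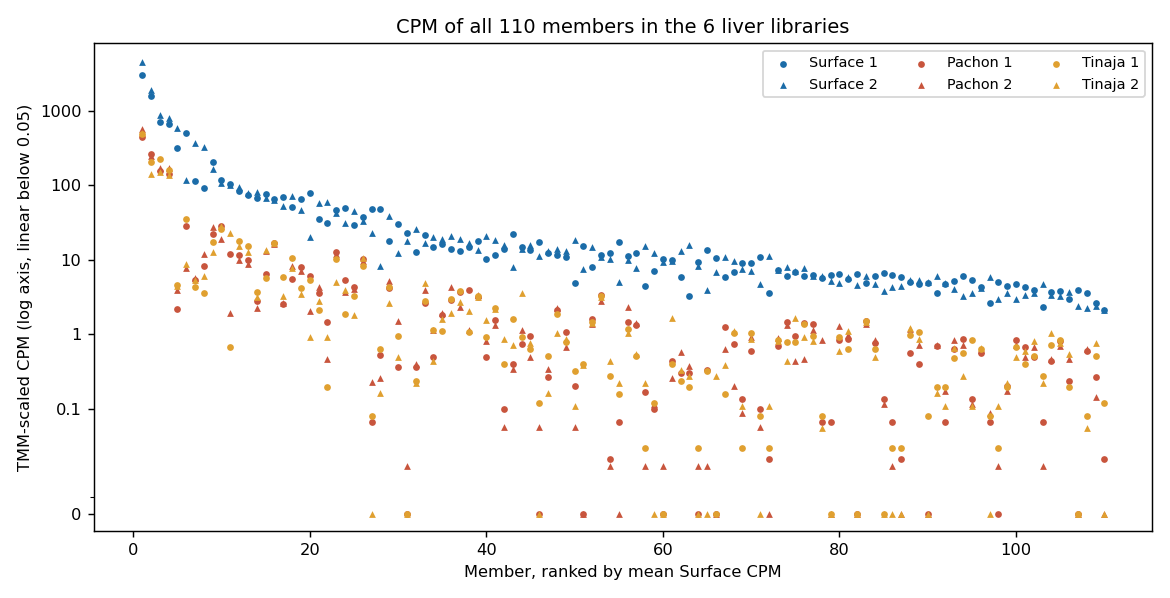
CPM of all 110 members in the 6 libraries, ordered by mean Surface CPM, on an axis that is logarithmic above 0.05 CPM and linear below it so that 0 can be shown. Both Surface libraries lie above all 4 cave libraries for each member, as the rule asks, and the distance between them varies from about 3-fold to no cave read at all.

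Many members were hardly read in the caves. In 51 of the 110, all 4 cave libraries were below 1 CPM, while 7 had at least 10 CPM in every cave library. Over all 4 cave libraries 8 members had at most 3 reads in total. All 110 had reads in both Surface libraries, 100 in each Pachon library, and 103 and 93 in Tinaja 1 and 2.

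The largest pooled ratio among members with at least 10 CPM in both Surface libraries was that of member 31, ENSAMXG00000037987. Surface gave 551 and 404 reads, Pachon 0 and 1, and Tinaja none in either library. In CPM these were 22.7 and 18.1 in Surface and 0.0289 in Pachon 2. The ratio was 2213 with an exact counting interval of 396 to 87497. A single cave read sets this ratio, so only the lower end of the interval is informative.

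For member 27 there were 1157 and 506 Surface reads, 2 and 8 from Pachon and 2 and 0 from Tinaja, a ratio of 321 (183 to 623). Member 46 gave 426 and 250 Surface reads, 0 and 2 from Pachon and 3 and 0 from Tinaja, a ratio of 313 (134 to 968). Member 60, with 248 and 207 reads in Surface and 1 read over the caves, had a ratio of 1054 (188 to 41734), but its lower Surface library was below 10 CPM. These intervals overlap, so the order of the 3 ratios is not set by the reads. Under the limit of 10 CPM in both Surface libraries, members 54 and 32 came next after member 5. They had 17 and 35 cave reads and ratios of 71.6 (44.3 to 124) and 59.1 (42.2 to 85.4).

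No cave read at all was found for 2 members. Member 82 had 158 and 102 reads in Surface, or 6.51 and 4.56 CPM, and was at least 201-fold higher there than a floor of 3 reads over the 4 cave libraries. Member 107 had 96 and 53 reads in Surface and was at least 115-fold higher by the same floor. The exact 95% intervals used for the other ratios start lower for these members, at 162 and 92.4. Both members were low in Surface too, and with no cave read the intervals set no upper limit to their ratios.

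**Figure D4:**
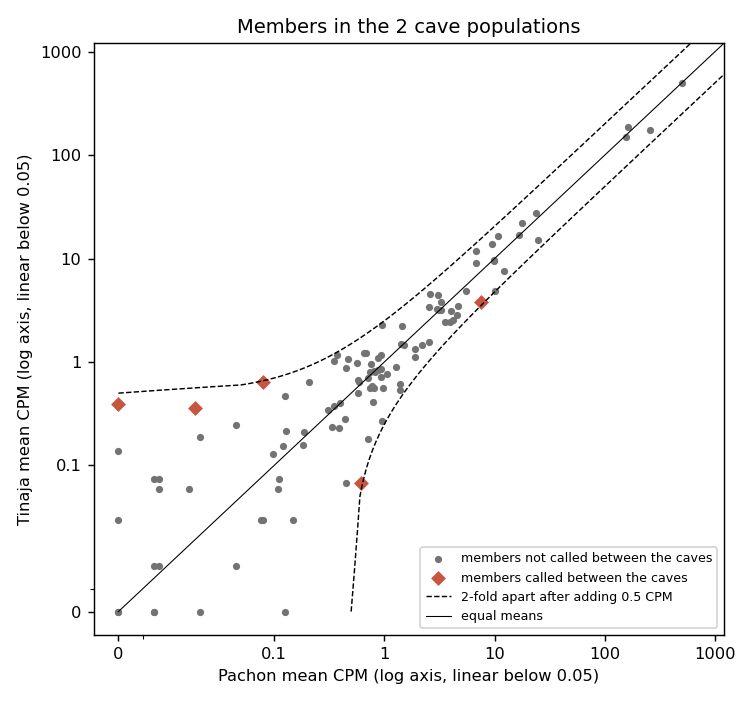
Mean CPM in Pachon and in Tinaja for the 110 members, on axes that are logarithmic above 0.05 CPM, with the line of equal means and dashed lines where the means are 2-fold apart after 0.5 CPM is added. Below about 1 CPM the dashed lines open widely, and 4 of the 5 members called between the caves (red diamonds) lie there.

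With TMM scaling, and under a limit on the cave means that treats both caves alike, neither cave was the higher one in most members. The Pachon mean was above the Tinaja mean in 55 members, below it in 53 and equal in 2. With total-count scaling the fitted log2 difference of Pachon from Tinaja was above 0 in 78 of the 110, against 54 with TMM. Its median was then 0.47 in members and 0.48 over all tested genes, against 0 and 0.02 with TMM. The highest of the 4 cave libraries was Pachon 1 in 27 members, Pachon 2 in 29, Tinaja 1 in 28 and Tinaja 2 in 26. The ranges of the caves overlapped in 67 members. Both Pachon libraries were above both Tinaja libraries in 23 of the 110, where 31.5% of all tested genes were, and the reverse held in 20, where 29.4% were. The limit on the cave means keeps such genes out, so a lower share is no result.

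Where the highest cave library had at least 10 CPM, the closest cave means with 0.5 CPM added were those of member 16, followed by member 15. Member 1 was as close as member 15, with a ratio of 1.02 in each. For member 16 the Surface libraries gave 64.7 and 62.6 CPM, against 16.9 and 16.4 for Pachon and 16.5 and 17.01 for Tinaja. Its log2 difference of Pachon from Tinaja was -0.01 ± 0.17 (SE). Member 15 was read at 76.3 and 67.1 CPM in Surface livers, at 6.38 and 13.3 for Pachon, and at 5.67 and 13.6 for Tinaja, so that replicate 2 was about 2 times replicate 1 in each cave and not in Surface.

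How equal the caves were depended on the added 0.5 CPM. Without it, 30 of the 110 members had cave means at least 2-fold apart, 17 higher in Tinaja and 13 higher in Pachon. Apart from member 8, those 30 had at most 2.26 CPM in either cave. Of the 38 members with at least 1 CPM in both cave means, only member 8 was 2-fold or more apart (2.09-fold), and the median ratio was 1.38. For genes near 0 in the caves the rule says that both are low, not that they are equal.

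Across the 15282 tested genes 9.25% differed between Pachon and Tinaja by edgeR's test, and 5 of the 110 members did. Some members passed the filter only through their Surface reads: with only the cave libraries in the fit, 76 of the 110 passed. Of those 76, 3 were called, where 9.62% of the genes tested there were. The limit on the cave means also keeps such genes out, so a lower share is no result. Member 19 gave 65.7 and 47.1 CPM in the Surface libraries, against 8.02 and 7.05 for Pachon and 4.13 and 3.50 for Tinaja. Member 54 was read at 12.3 and 10.1 CPM in Surface livers, at 0.0334 and 0.0289 for Pachon, and at 0.278 and 0.438 for Tinaja. Member 51 gave 372 and 170 Surface reads, none from either Pachon library, and 10 and 7 from Tinaja. In these 3 the libraries of the caves did not overlap. Members 42 and 108 were called as well, with means of 0.0790 and 0.619 CPM in Pachon and 0.636 and 0.0670 in Tinaja. Without Pachon 1, without Pachon 2 or without Tinaja 2, 1 library was left in that cave and fewer members were called. Fewer of all tested genes were called too, so the drop is no result about the members.

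The rule was also applied to the libraries of 1 replicate number at a time, so that the others did not enter that choice. A library held out was still scaled with the others, and it may come from the same sample as the library used. All 6 libraries entered the choice of the 110 members, which therefore meet the 3-fold limit in both replicates by definition. The values below are thus no support for that choice. When the rule was applied to the 3 replicate 1 libraries alone, it took 316 genes, of which 101 were members. Of the 316, 163 (51.6%) also had at least 3 times as many CPM in Surface 2 as in Pachon 2 and in Tinaja 2. In 285 (90.2%) Surface 2 was above both. Among the 10431 genes with at least 2 CPM in Surface 2, these shares were 3.60% and 39.5%. Chosen on the replicate 2 libraries instead, 290 genes were taken, of which 99 were members. In the replicate 1 libraries 165 of the 290 (56.9%) were at least 3-fold and 265 (91.4%) at all higher in Surface, against 3.78% and 40.4% of 10489 genes. The median log2 ratio of Surface to the higher cave, with 0.5 CPM added, was 1.45 and 1.49 in the libraries not used, against -0.15 and -0.12 over those genes. The whole rule was met again by 119 genes each time (37.7% and 41.0%, against 2.78% and 3.01%). These are descriptions with no test.

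Between the Surface libraries the median difference was larger in members than over all genes, a description with no test. The rule limits the lower Surface library and the highest cave library, and leaves the higher Surface library free. It does not act alike on the spread within Surface and within the caves, so the contrast is not read as a trait of the members. The median size of the log2 difference between Surface 1 and 2 was 0.36 in members and 0.26 over all tested genes. In Pachon it was 0.18 and 0.21, and in Tinaja 0.25 and 0.26, with 0.5 CPM added, which shrinks the differences of members that are low there. Surface libraries were within 1.5-fold of each other in 67 members and at least 2-fold apart in 21. With 0.5 CPM added, a log2 difference of 1 or more was found in 19 of the 110 members for Surface, against 5.05% of all tested genes. For Pachon it was found in 8 members, against 2.98%, and for Tinaja in 8, against 4.42%. Neither Surface library was the higher one throughout: Surface 1 was above Surface 2 in 59 members and below it in 51.

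**Figure D5:**
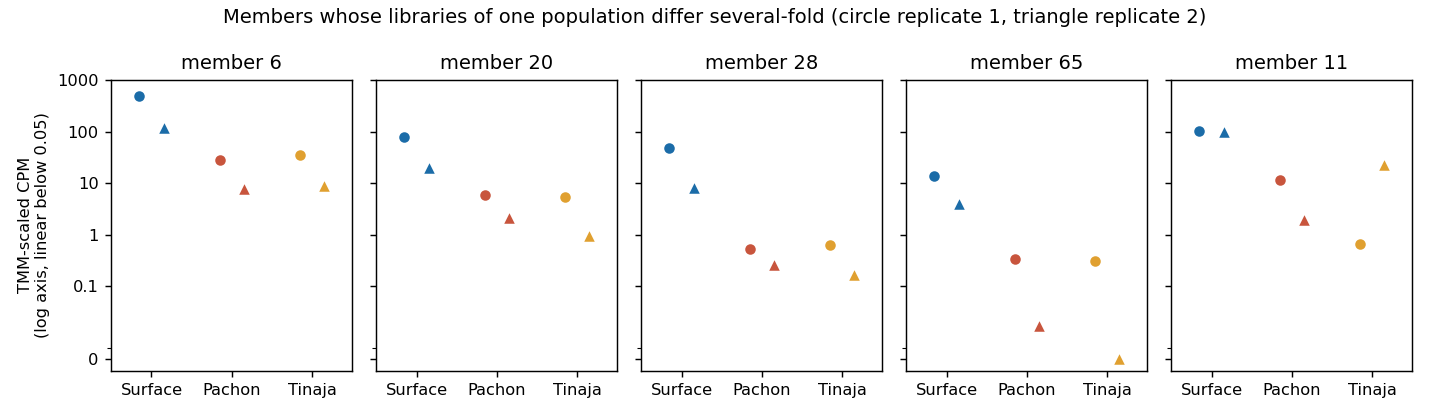
CPM in each library for 5 members whose libraries of a population differed several-fold, on an axis that is logarithmic above 0.05 CPM. In members 6, 20, 28 and 65 the circle (replicate 1) is above the triangle (replicate 2) in all 3 populations, and in member 11 the caves differ in opposite directions.

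In 4 members replicate 1 was at least 2-fold above replicate 2 in all 3 populations, as it was in 0.386% of tested genes. These members were singled out after their values were seen. Member 6 gave 496 and 116 CPM in the Surface libraries, against 28.04 and 7.74 for Pachon and 35.7 and 8.64 for Tinaja, close to a 4-fold step each time. Member 20 was read at 79.1 and 20.04 CPM in Surface livers, at 5.98 and 2.08 for Pachon, and at 5.36 and 0.930 for Tinaja. Members 28 and 65 followed with 48.0 and 8.23 CPM, and 13.5 and 3.89 CPM, in Surface, and below 1 CPM in every cave library. The ratio between the Surface libraries of member 28, 5.83, was the largest of all members. No member had replicate 2 at least 2-fold above replicate 1 in all 3 populations.

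Members 6, 11 and 20 were the 3 that passed edgeR's test in neither cave. The rule used the contrasts with Surface, so the calls in this paragraph are a description and no support for the choice. By DESeq2, members 6 and 20 passed in both, with DESeq2 adjusted p from 0.00648 to 0.0189, and member 11 in neither. Member 11 gave 104 and 99.9 CPM in the Surface libraries, against 11.8 and 1.91 for Pachon and 0.675 and 23.0 for Tinaja. Its Surface libraries agreed closely and its cave libraries did not, and it was the one member not called for the mean of both caves (edgeR adjusted p = 0.121). Members 6 and 20 were called for that mean, with adjusted p of 0.0445 and 0.0424 by edgeR, and lost the call without any 1 of the 6 libraries. Without 1 library edgeR's adjusted p ran from 0.0528 to 0.181 for member 6 and from 0.0525 to 0.178 for member 20. The other named members called in each cave were followed through these fits, except members 26, 60, 109 and 110. Of those followed, members 8, 15, 28, 65 and 108 lost at least 1 of these calls without 1 library. Members 28 and 65 also lost the call for the mean without Pachon 2 (edgeR adjusted p = 0.0685 and 0.0519), and member 28 without Pachon 1 or Tinaja 2 (edgeR adjusted p = 0.0641 and 0.0558).

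Members 12 and 13 stood on adjacent rows of the table, whose order is not explained in the sources used here, and moved together. Member 12 was read at 83.8 and 94.8 CPM in Surface livers, at 11.5 and 9.997 for Pachon, and at 17.8 and 15.2 for Tinaja. Member 13 gave 73.0 and 78.7 CPM in the Surface libraries, against 9.99 and 8.90 for Pachon and 15.2 and 12.6 for Tinaja. The first was 1.12 to 1.20 times the second in all 6 libraries. Members 20 and 65, and members 46 and 82, were the other pairs on adjacent rows. The sources used here do not give how reads matching several genes were counted, and members of such pairs may not be separate observations.

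At the limits of the rule, genes on either side had like values. Just inside the 3-fold limit were members 109, 26 and 3, with ratios of the lower Surface to the highest cave library of 3.096, 3.13 and 3.16. Just outside were 3 genes at 2.99, 2.97 and 2.96, the last with 150 and 142 CPM in Surface and 48.2, 36.4, 33.7 and 36.7 in the caves. Another 133 genes met the rest of the rule at a ratio from 2 to 3.

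At the limit on the cave means, members 8, 108 and 42 were just inside with ratios of 1.99, 1.97 and 1.96. The 3 genes just outside had 2.08, 2.14 and 2.21. One of these had 2322 and 2015 CPM in Surface, 243 and 283 in Pachon and 495 and 633 in Tinaja, more reads than member 2. At the limit of 2 CPM, member 110 had 2.14 and 2.10 CPM in Surface, and the nearest gene outside had 1.98 and 3.80.

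Without the limit on the cave means 141 genes were at least 3-fold lower in both caves, and the 31 left out by it were lower in Tinaja in 20 and lower in Pachon in 11. The mirrored rule, with all cave libraries at least 3 times both Surface libraries, took 60 genes. That order depended on the scaling: with library totals in place of TMM, 82 genes were lower and 90 higher by the same rules. With total-count scaling the median over all tested genes became a log2 fold change of 0.55 in Pachon and 0.08 in Tinaja, and of the members to -3.05 and -3.64. Relative to all genes, the members were then lower by about the same amounts as with TMM. Scaling shifts all genes of a comparison nearly alike, so this likeness was fixed in advance and is no result.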

How the data were processed

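Raw counts of reads for each Ensembl gene in 6 liver libraries were deposited by the authors; they are whole numbers, and the table's name points to astMex 2 and Ensembl 96. The submitters' processing notes name bcl2fastq 2.20 and STAR, with no version for STAR. The sources used here do not give the read counter, its strand setting or its handling of reads matching more than one gene. Counts of overlapping, antisense or near-identical genes are therefore uncertain.

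With edgeR 4.0.16 in R 4.3.3, TMM factors were taken over all genes and CPM computed. Genes were filtered by expression with a count minimum of 10, which left out 12138. All 6 libraries entered one robust quasi-likelihood fit with a term per population and 3 residual degrees of freedom, and p-values were adjusted by the Benjamini-Hochberg method over all 15282 genes tested. A gene is called at an adjusted p below 0.05. Each SE is the absolute log2 fold change over the root of its F statistic, an approximation. The fit was tested on simulated data, with changes planted only in genes above a read minimum and one spread for all genes. That test does not cover members with hardly any cave read or with widely spread libraries. The common biological coefficient of variation was 25.1%. Pooled ratios divide reads summed over libraries by their summed scaled sizes, with exact 95% binomial intervals that cover counting error only.

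The members and the rules for named genes were chosen with earlier results of these data known. Named members are the 10 with the most Surface CPM, the 6 with the largest pooled ratio at 10 CPM or more in Surface, those nearest the limits, the 2 with the closest cave means at 10 CPM or more in some cave library and those with no cave read. Members 6, 11, 12, 13, 20, 28, 60 and 65 and those called between the caves were described after their values were seen. Gene lists and cell type markers could not be used, since no symbol was matched. Alternatives were DESeq2 1.42.0, other scalings, no filter, a replicate block, other limits and leaving out each library.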

Additional observations from a re-analysis of the deposited data

Results flagged for a closer look

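In 5 of the 110 members the shift from Surface differed between the caves by edgeR's test of Pachon against Tinaja. Of all tested genes 9.25% did, and the rule holds the members' means within 2-fold after 0.5 CPM is added. The number called is therefore no result about the members. The log2 difference of Pachon from Tinaja was 0.98 ± 0.23 in member 19 (SE, edgeR adjusted p = 0.0425). It was -2.91 ± 0.56 in member 42 (edgeR adjusted p = 0.0225), -3.30 ± 0.59 in member 54 (edgeR adjusted p = 0.0168) and 3.08 ± 0.59 in member 108 (edgeR adjusted p = 0.0215). In member 51, with no Pachon read, the fitted value of -6.35 depends on the prior count (edgeR adjusted p = 0.0301). Both libraries of one cave lay above both of the other in each of the 5. Apart from member 19, these members had under 1 CPM in every cave library, where a single library holds at most 22 reads. All 5 calls were lost without Pachon 1, without Pachon 2 and without Tinaja 2, where fewer of all tested genes were called too. Without Tinaja 1, members 42 and 54 kept theirs.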

How the results depend on the processing

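The number of members was 243 at 2-fold below Surface. With 1 library left out it ran from 114 to 248, highest without Surface 2 (248) and Surface 1 (228), since fewer libraries make the rule easier to meet. It was 316 with replicate 1 libraries only, 290 with replicate 2 libraries only and 50 where a cave mean of at least 1 CPM was also asked, an alternative chosen after seeing the data, as was leaving out the added 0.5 CPM (80). Under the other alternatives it lay between 74 and 150. With total-count scaling 75 of the 110 genes were kept among 82. Members called between the caves numbered 14 with total-count scaling, 3 with only the 2 populations compared, where 76 members passed the filter, and 0 to 7 with 1 library left out. Of all tested genes 18.1% were called between the caves with total-count scaling, against 9.25% with TMM. With only the 2 populations compared 9.62% were called, and with 1 library left out the share was below 9.25% each time. The changes in the number of members called are therefore no result about the members. With the replicate block 109 members were called in Pachon, where 6.86% of all tested genes were, and 109 in Tinaja, where 6.45% were. For the mean 109 were called, against 8.19% of all tested genes, and between the caves 5, against 6.93%. Members 6 and 20 gained the call in each cave with this block, while member 11 did not. Deviations of same-numbered libraries were hardly correlated (0.04, 0.02 and -0.11). These values cannot decide if the numbers pair the samples, since a pairing may affect only some genes. The median log2 fold change of members for the mean of both caves, -3.75, was -3.40 with total-count scaling and -3.91 to -3.56 with 1 library left out. Without member 1 the members took 0.566% of reads in Surface, 0.106% in Pachon and 0.0715% in Tinaja. Of the values of members named or described, 990 kept their side of the threshold, 74 lost the call, 8 gained it and 0 reversed. Members 26, 60, 109 and 110 were not part of this tally. The rule chose the members on all 6 libraries and asked for their direction against Surface. For those comparisons the lack of reversals was thus largely fixed in advance, and the tally is no support for the choice. The floor of 3 reads over the 4 cave libraries was a setting and was not estimated from these data. Differences of a few reads between the caves rest on little, and what size could be resolved was not tested. Below 1 CPM, members 42, 51, 54 and 108 were called between the caves.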
